A study of Homo sapiens with 12 samples.

Results

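SOX5, DIXDC1, TNFRSF19, MEOX2, ZNF488 and ADORA1 are 6 of the 61209 gene names in the deposited count table. They were picked by name because their transcripts fell strongly when control A375 cells were starved of glucose and did not do so in cells depleted of OGDH. The values that chose them are therefore the 2 starvation responses and the difference between them, and every value on those contrasts is given below as a description, without a test. All 6 passed the filter on low counts, which left 18526 genes.

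A375 is an established human melanoma line, and OGDH encodes the E1 subunit of the alpha-ketoglutarate dehydrogenase complex of the tricarboxylic acid cycle. RNA sequencing covered 4 groups of 3 libraries: OGDH-depleted cells kept for 5 h without glucose, OGDH-depleted cells with glucose, control cells kept for 5 h without glucose, and control cells with glucose. The depletion is called KO in the sample titles and a knockdown in the series text, and neither the guide or hairpin nor the number of clones is given in the labels. No group carries any other stated allele or agent. OGDH lay between 32.3 and 45.1 CPM (the count set against the scaled library total) in the 6 depleted libraries and between 129 and 166 CPM in the 6 control libraries. Libraries held 21556273 to 25546615 counted fragments, and mitochondrially encoded transcripts took 3.06% to 14.6% of them. The replicate that correlated least with the others of its group was starved depleted replicate 3, starved control replicate 3 and fed control replicate 2 in those groups, and these libraries are called outlying below.

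The 6 genes belong to different families that are mostly known from development and signalling. SOX5 is a transcription factor of the SOXD group, which lacks a transactivation domain of its own and acts with partner proteins. MEOX2 is a homeobox transcription factor of mesoderm and blood vessels, and ZNF488 is a zinc-finger protein that in the mouse acts with Olig2 in oligodendrocyte differentiation. TNFRSF19 (TROY) is a cell-surface member of the TNF receptor superfamily, ADORA1 is a Gi-coupled receptor for adenosine, and DIXDC1 binds Dishevelled through its DIX domain and promotes Wnt signalling.

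The genes lie on 6 chromosomes (hg38, as the table gives them). SOX5 spans chr12:23529504-24562544 on the minus strand, DIXDC1 chr11:111927144-112022653 on the plus strand and TNFRSF19 chr13:23570370-23676104 on the plus strand. MEOX2 spans chr7:15611212-15686683 and ZNF488 chr10:47365496-47384293, both on the minus strand, and ADORA1 spans chr1:203090654-203167405 on the plus strand. Their median span was 86131 bases, against 23815 bases over 18506 tested genes on a single chromosome, and SOX5 alone covers 1033041 bases. Their median summed exon length of 4652 bases lay close to the 4357 bases of those genes. Among genes that overlap the 6, the single one sharing exon bases was the antisense ENSG00000234775 at ADORA1, with at most 2 counts in a library.

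The promoters are shown because the 6 transcripts moved together. RefSeq (GRCh38.p14) windows of 300 bases, from 250 bases upstream of an annotated start to 50 bases downstream, were matched for 5 of the 6 genes, in 8 windows. The windows of SOX5 (chr12:24562442-24562741, minus strand), MEOX2 (chr7:15686634-15686933, minus strand) and ADORA1 (chr1:203127476-203127775, plus strand), the genes with a single window in the RefSeq table, read as follows 5′ to 3′, with capitals marking the motif matches named below. The count table starts ADORA1 at base 203090654, upstream of its window, so a start there is not covered.
SOX5: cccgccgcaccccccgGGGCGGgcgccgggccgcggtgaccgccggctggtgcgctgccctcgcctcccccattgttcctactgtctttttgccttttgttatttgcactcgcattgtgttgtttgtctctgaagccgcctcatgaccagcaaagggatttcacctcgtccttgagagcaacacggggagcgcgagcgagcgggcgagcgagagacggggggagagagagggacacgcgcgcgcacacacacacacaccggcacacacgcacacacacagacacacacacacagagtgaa
MEOX2: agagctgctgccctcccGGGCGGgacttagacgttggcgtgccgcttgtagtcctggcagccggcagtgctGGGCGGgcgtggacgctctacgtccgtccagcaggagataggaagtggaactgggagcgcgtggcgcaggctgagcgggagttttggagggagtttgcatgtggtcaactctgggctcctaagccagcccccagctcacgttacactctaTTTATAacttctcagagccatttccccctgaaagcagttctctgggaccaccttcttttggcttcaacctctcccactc
ADORA1: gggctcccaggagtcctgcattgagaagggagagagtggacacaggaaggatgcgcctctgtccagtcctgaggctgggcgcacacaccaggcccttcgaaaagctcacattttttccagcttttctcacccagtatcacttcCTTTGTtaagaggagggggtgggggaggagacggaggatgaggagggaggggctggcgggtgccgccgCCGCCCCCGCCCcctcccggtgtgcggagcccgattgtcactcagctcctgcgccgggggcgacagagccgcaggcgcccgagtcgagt

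On both strands, the windows were searched for 7 motifs, and no pair of matches shared a base. The GC box GGGCGG stood in 7 of the 8 windows and in 44.9% of all 34796 windows. In ADORA1 it lay 39 and 33 bases upstream of the start, on the strand opposite to the gene (printed as CCGCCC). In MEOX2 it lay 233 and 179 bases upstream and in SOX5 234 bases upstream. The second annotated start of TNFRSF19 had 5 matches, and its first start was the window without one. The TATA box motif TATAAA was found once, 29 bases upstream of the MEOX2 start, and in 11.6% of all windows. It lay on the strand opposite to the gene (printed as TTTATA), so it is not a TATA box in the direction of MEOX2. A core motif of SOX factors, ACAAAG, was found once, 107 bases upstream of the ADORA1 start on the opposite strand (printed as CTTTGT), and in 16.1% of all windows. Other forms of the SOX core were not searched for and are not marked. The CCAAT box was found in 2 windows, both of DIXDC1, and in 34.6% of all windows. The E-box CACGTG was in 0 of the 8 windows and in 7.2% of all. The AP-1 motif TGANTCA was in 0 of the 8 and in 7.73% of all. The cAMP response element TGACGTCA was in 0 of the 8 and in 1.84% of all. The windows had a median GC content of 67.5% and 24 CpG sites, against 58.7% and 14 over all windows, although the first TNFRSF19 window had a GC content of 49% and 4 CpG sites. Each match is a match of letters and no binding was measured.

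Across the 4 groups, all 6 transcripts were lowest in starved control cells, and the libraries of that group did not overlap those of any other group. Starved control cells held 11.03% (DIXDC1) to 21.0% (SOX5) of the mean level of fed control cells, and starved depleted cells held 49.1% (ADORA1) to 100.4% (SOX5) of it. What the genes did in depleted cells with glucose differed among them, and they are taken in turn. In bulk RNA a smaller share of cells with a transcript and less transcript in each cell cannot be told apart.

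**Figure D1:**
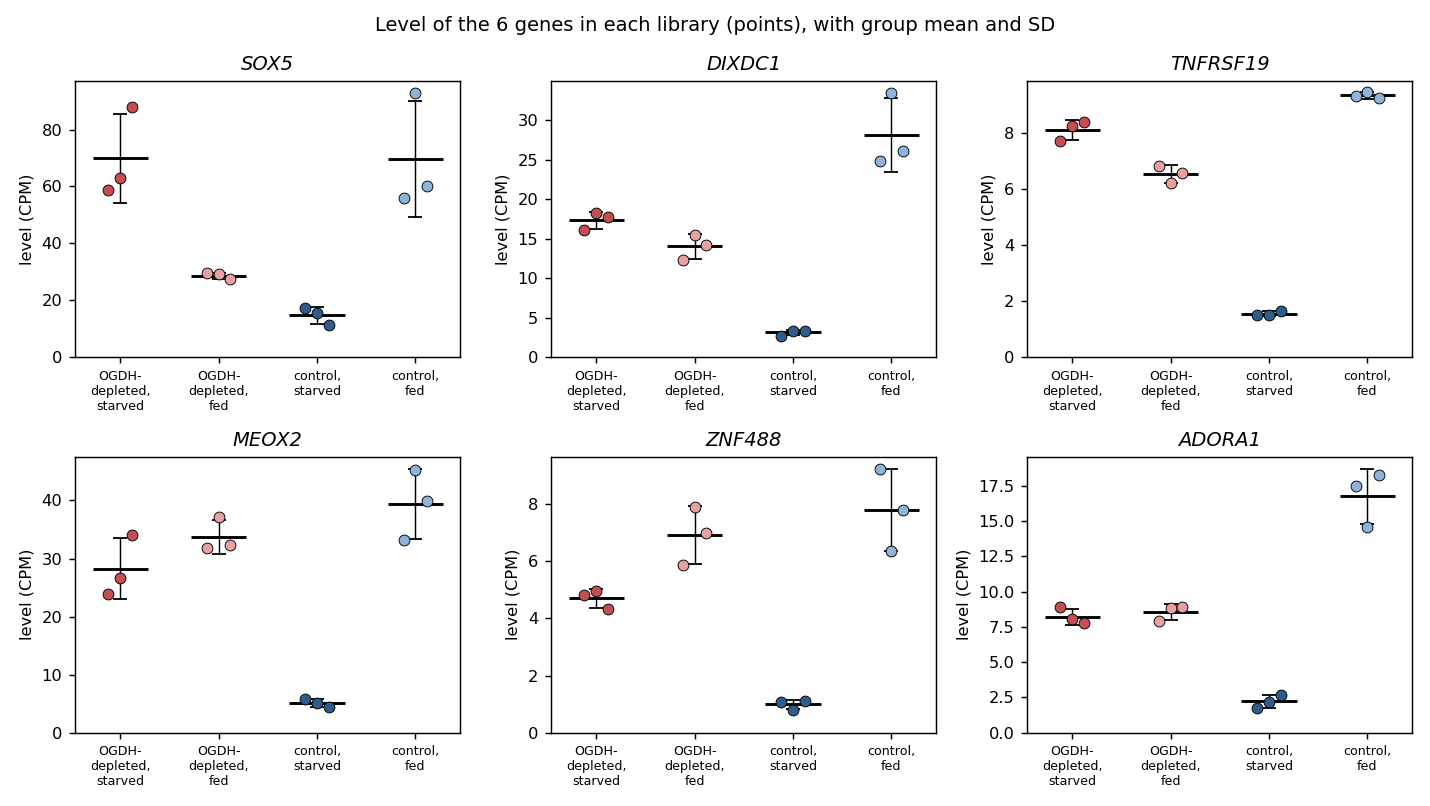
Level in CPM of each gene (vertical axis, from 0) in the 12 libraries (points), with the mean (horizontal line) and SD (bars) of each group of 3. In every panel the starved control libraries lie below all others, and SOX5, DIXDC1, TNFRSF19 and ADORA1 also lie lower in fed depleted than in fed control cells without overlap.

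SOX5, the SOXD transcription factor, had 58.8, 63.1 and 87.8 CPM in starved depleted cells and 29.4, 29.1 and 27.3 CPM in fed depleted cells. It had 17.2, 15.4 and 11.3 CPM in starved control cells, against 55.8, 93.0 and 60.2 CPM in fed control cells. All starved depleted libraries lay above the fed depleted ones and overlapped those of fed control cells. The mean in starved depleted cells was 245% of that in fed depleted cells, and in starved control cells 21.0% of that in fed control cells. The log2 fold changes for starvation were 1.29 (SE 0.22) in depleted and -2.25 (SE 0.23) in control cells. The 3 outlying libraries held the most extreme SOX5 levels of their groups, and without them the means were 61.0, 28.6, 16.3 and 58.0 CPM in starved depleted, fed depleted, starved control and fed control cells. Mitochondrial shares in those 3 libraries were 9.71% in starved depleted replicate 3, 4.11% in starved control replicate 3 and 14.6% in fed control replicate 2, each at an end of its group's range, and their part in the SOX5 values was not tested.

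DIXDC1, the Wnt pathway protein, had 16.1, 18.2 and 17.7 CPM in starved depleted cells and 12.3, 15.5 and 14.2 CPM in fed depleted cells. It had 2.69, 3.33 and 3.28 CPM in starved control cells, against 24.8, 33.4 and 26.1 CPM in fed control cells. The 4 groups were fully separated, in the order starved control, fed depleted, starved depleted and fed control from low to high. Its log2 fold changes for starvation were 0.31 (SE 0.14) in depleted and -3.17 (SE 0.16) in control cells. The value in control cells was the 12th largest fall among the 18526 genes.

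TNFRSF19, the TNF receptor superfamily member, had 7.72, 8.25 and 8.39 CPM in starved depleted cells and 6.85, 6.23 and 6.57 CPM in fed depleted cells. It had 1.52, 1.505 and 1.64 CPM in starved control cells, against 9.36, 9.47 and 9.25 CPM in fed control cells. The order was that of DIXDC1, again with no overlap, and the SD was 1.19% (fed control) to 4.89% (starved control) of the group mean. Counts were 27, 28 and 39 in the starved control and 236, 219 and 221 in the fed control libraries. At such counts the small SDs are not read as precision. The log2 fold changes were 0.31 (SE 0.10) in depleted and -2.58 (SE 0.12) in control cells.

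MEOX2, the homeobox factor, had 23.9, 26.7 and 34.1 CPM in starved depleted cells and 31.8, 37.1 and 32.3 CPM in fed depleted cells. It had 5.72, 5.05 and 4.42 CPM in starved control cells, against 33.2, 45.2 and 39.9 CPM in fed control cells. Starved control cells stood alone at the bottom, and the other 3 groups overlapped each with its neighbour in the order. The log2 fold changes were -0.26 (SE 0.16) in depleted and -2.96 (SE 0.18) in control cells. Per kilobase of exon it was the most abundant of the 6, with means of 11.9, 14.2, 2.14 and 16.6 RPKM in starved depleted, fed depleted, starved control and fed control cells. In fed control cells the other 5 lay between 1.83 RPKM (TNFRSF19) and 6.17 RPKM (SOX5).

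ZNF488, the zinc-finger protein, had 4.81, 4.96 and 4.33 CPM in starved depleted cells and 5.88, 7.90 and 6.98 CPM in fed depleted cells. It had 1.07, 0.806 and 1.09 CPM in starved control cells, from 19, 15 and 26 counts, against 9.24, 6.36 and 7.79 CPM in fed control cells. It was the single gene of the 6 whose starved depleted libraries all lay below the fed depleted ones, and fed depleted and fed control cells overlapped. The log2 fold changes were -0.56 (SE 0.17) in depleted and -2.97 (SE 0.20) in control cells.

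ADORA1, the adenosine receptor, had 8.88, 8.04 and 7.80 CPM in starved depleted cells and 7.93, 8.88 and 8.89 CPM in fed depleted cells. It had 1.74, 2.20 and 2.69 CPM in starved control cells, against 17.5, 14.6 and 18.3 CPM in fed control cells. Both groups of depleted cells overlapped at about the same level, between the starved and the fed control cells. The log2 fold changes were -0.05 (SE 0.15) in depleted and -2.91 (SE 0.16) in control cells.

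**Figure D2:**
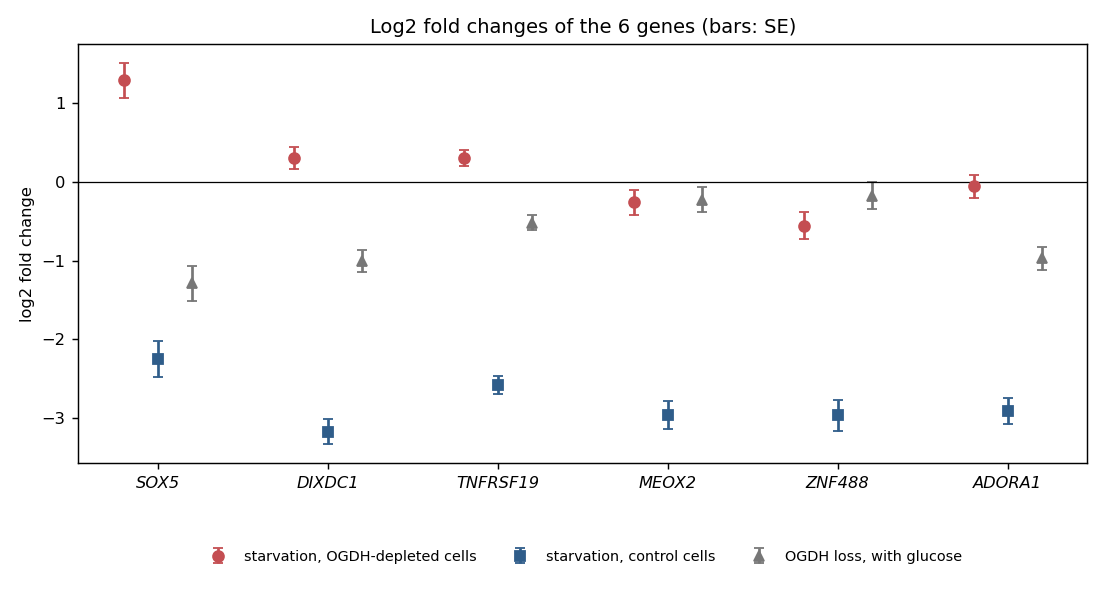
Log2 fold changes of the 6 genes (points, with SE as bars): starvation in OGDH-depleted cells (circles), starvation in control cells (squares) and OGDH loss with glucose (triangles). The squares lie between -3.17 and -2.25, the circles between -0.56 and 1.29, and the triangles between -1.29 and -0.17.

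The 6 genes were set against the table they came from. In starved control cells 17.5% of the tested genes passed edgeR's quasi-likelihood test (Benjamini-Hochberg adjusted p under 0.05) as lower, and 20.8% had all starved libraries below all fed ones, as all 6 genes did. The median log2 fold change for starvation of control cells was -2.94 over the 6 and -0.02 over all tested genes. In depleted cells it was 0.13 over the 6 and 0.02 over all, with SOX5, DIXDC1 and TNFRSF19 higher without overlap, as were 20.6% of all genes, and ZNF488 lower without overlap, as were 19.1%. Between starved depleted and starved control cells the log2 fold changes ran from 1.88 (ADORA1) to 2.48 (MEOX2), all 6 without overlap, as were 19.1% of all genes in the higher direction. The difference between the responses, depleted minus control, ran from 2.41 (ZNF488) to 3.54 (SOX5), and 17.3% of all tested genes passed the test for such a difference. These contrasts share libraries with one another and with the values that chose the genes.

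The pattern is not particular to these 6. A fall of at least 4-fold that passed the test in starved control cells was seen in 172 genes (0.928% of those tested), and in 138 of them (80.2%) the fall in starved depleted cells was under 2-fold. All 6 were among the 138 (0.745% of those tested), and 5 or 6 of them were so under each of the 20 alternatives tried. The 6 were chosen on the same 2 responses that define the 138, so their place among them was set by that choice. It is a description and gives no support. The 172 became 262 without starved control replicate 3, 343 without the 3 outlying libraries, 302 without the filter on low counts and 68 with a minimum count of 50. In the last 3 of these settings the 138 became 255, 236 and 57.

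**Figure D3:**
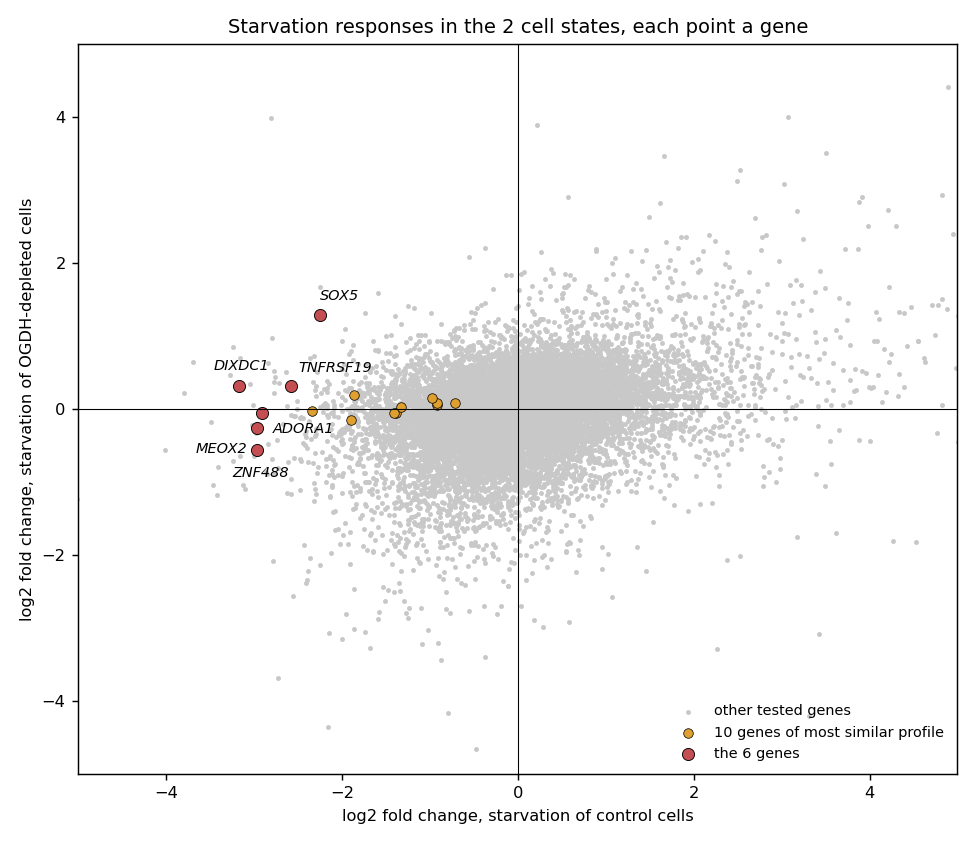
Log2 fold change on starvation of control cells (horizontal) and of OGDH-depleted cells (vertical) for the tested genes (grey), the 10 genes of most similar profile (orange) and the 6 genes (red). Axes stop at 5 in each direction, which leaves out 26 of 18526 genes. SOX5 stands above the other 5 at 1.29 on the vertical axis.

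The choice of genes did not name the comparison of OGDH loss with glucose present, but it is not independent of it. It uses the fed libraries of the starvation contrasts, and a fall from fed control cells without one from fed depleted cells favours genes that are high in fed control or low in fed depleted cells. The tests below therefore give no independent support to a lower level in depleted cells. SOX5, DIXDC1, ADORA1 and TNFRSF19 were lower in fed depleted than in fed control cells, and MEOX2 and ZNF488 did not pass. SOX5 averaged 28.6 ± 1.12 CPM in fed depleted and 69.7 ± 20.3 CPM in fed control cells (SD, n = 3 each), a log2 fold change of -1.29 (SE 0.22, edgeR adjusted p = 0.0106). DIXDC1 averaged 14.003 ± 1.57 CPM in fed depleted and 28.1 ± 4.65 CPM in fed control cells (-1.01, SE 0.14, edgeR adjusted p = 0.00386). ADORA1 averaged 8.56 ± 0.551 CPM in fed depleted and 16.8 ± 1.94 CPM in fed control cells (-0.97, SE 0.15, edgeR adjusted p = 0.00506). TNFRSF19 averaged 6.55 ± 0.310 CPM in fed depleted and 9.36 ± 0.112 CPM in fed control cells (-0.51, SE 0.10, edgeR adjusted p = 0.0211).

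Fed depleted cells thus held 41.0% of the fed control level of SOX5, 49.8% of DIXDC1, 51.0% of ADORA1 and 70.0% of TNFRSF19. The remaining pair had smaller differences. MEOX2 averaged 33.7 ± 2.95 CPM in fed depleted and 39.5 ± 6.03 CPM in fed control cells (-0.23, SE 0.16, edgeR adjusted p = 0.541). ZNF488 averaged 6.92 ± 1.01 CPM in fed depleted and 7.79 ± 1.44 CPM in fed control cells (-0.17, SE 0.17, edgeR adjusted p = 0.671). Thus 4 of the 6 were lower (1.45% of all tested genes were), and in the same 4 the groups did not overlap (12.9% of all tested genes in that direction). The choice of genes favours this direction, so nothing is read from the count against those shares. Of the 138 genes with the shared starvation pattern, which favours this direction in the same way, 20 (14.5%) were lower on OGDH loss with glucose. The genes with the pattern were drawn anew in each alternative, so the counts there are not out of the 138. The count was 6 to 13 without any 1 of the fed depleted libraries or fed control replicates 1 and 3. It was 39 of 255 without the 3 outlying libraries. The calls of DIXDC1 and ADORA1 held in all 20 alternatives, but SOX5 and TNFRSF19 lost theirs when any 1 of the 3 fed depleted libraries was left out (SOX5 adjusted p = 0.0571 to 0.0579), which leaves 2 of 6. TNFRSF19 also lost its call without fed control replicate 1 or 3, without the filter on low counts (adjusted p = 0.257) and when the 2 groups were fitted alone (adjusted p = 0.0974).

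The 6 profiles over the 12 libraries resembled each other to different degrees. Pearson's r of log2 CPM with the mean of the other 5 was 0.991 for DIXDC1, 0.990 for TNFRSF19, 0.967 for MEOX2, 0.956 for ADORA1, 0.936 for ZNF488 and 0.840 for SOX5. Between pairs it ran from 0.722 (SOX5 with ZNF488) to 0.981 (DIXDC1 with TNFRSF19). The libraries of the same 4 groups underlie every r, and the genes were chosen for a shared pattern, so these values only describe the set.

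Among 14877 other genes with a mean of at least 1 CPM, the 10 whose log2 CPM was closest to the mean profile of the 6 had r between 0.987 and 0.996 over 12 libraries, and 159 genes exceeded 0.95. They were DEPDC1B (r = 0.996), CCNB2, which encodes cyclin B2 (0.990), RACGAP1, a centralspindlin subunit (0.990), the mitotic kinase AURKA (0.990), GMNN, which encodes the replication inhibitor geminin (0.989), and the mitotic kinesin KIF4A (0.988). LMNB1, which encodes lamin B1, the kinesin KIF20A, the actomyosin regulator LIMCH1 and the long noncoding RNA GRASLND each had r = 0.987. DEPDC1B averaged 33.5 ± 1.37, 32.4 ± 0.692, 20.6 ± 0.305 and 39.0 ± 1.17 CPM in starved depleted, fed depleted, starved control and fed control cells. By its means the order of groups was that of DIXDC1, with a shallower fall in starved control cells (log2 fold change -0.92, SE 0.08) than any of the 6. Over the 10, the log2 fold change for starvation of control cells ran from -2.34 (GRASLND) to -0.72 (RACGAP1) and that for starvation of depleted cells from -0.15 (LMNB1) to 0.19 (KIF20A). These values come from the libraries that chose the 10 and only describe them.

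The nearest tested gene on each side of each of the 6 was examined to see whether the change extended along the chromosome. Of these 12 neighbours, 1 was higher and 3 were lower in starved control cells, against 17% and 17.5% of all tested genes by the same test. The closest, LINC02587, is a long noncoding RNA gene on the opposite strand at chr7:15688378-15696892, 1695 bases from MEOX2. It had 0.737, 0.708 and 1.05 CPM in starved depleted cells and 0.881, 0.971 and 1.46 CPM in fed depleted cells. It had 0.168, 0.322 and 0.210 CPM in starved control cells, from 3, 6 and 5 counts, against 1.15, 2.03 and 1.59 CPM in fed control cells. As with MEOX2, the starved control libraries lay below all others and both groups of depleted cells overlapped. LINC02587 fell in starved control cells (log2 fold change -2.74, SE 0.36, edgeR adjusted p = 0.000147), with a value of -0.42 in depleted cells (SE 0.30, edgeR adjusted p = 0.391), and the difference passed the test (2.32, SE 0.48, edgeR adjusted p = 0.00653). With glucose its log2 fold change on OGDH loss was -0.52 (SE 0.28, edgeR adjusted p = 0.397).

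The other neighbours moved less or in other ways. DLAT, a subunit of the pyruvate dehydrogenase complex 2755 bases from DIXDC1, fell in starved control cells, where it averaged 60.1 ± 3.69 CPM, against 81.4 ± 4.94 CPM in fed control cells (log2 fold change -0.44, SE 0.09, edgeR adjusted p = 0.00359). BTG2, an antiproliferative gene 138086 bases from ADORA1, went the other way: it averaged 12.1 ± 0.901, 22.6 ± 0.236, 44.6 ± 1.20 and 35.8 ± 0.897 CPM in starved depleted, fed depleted, starved control and fed control cells. It was lower after starvation of depleted cells (-0.90, SE 0.09, edgeR adjusted p = 0.000183), as the single called neighbour there, against 7.18% of all tested genes in either direction, and higher after starvation of control cells (0.32, SE 0.09, edgeR adjusted p = 0.0138), the last of these a call lost without the filter on low counts and when the 2 groups were fitted alone. PPFIA4, 11914 bases from ADORA1, was lower in starved control cells with overlapping libraries (-0.97, SE 0.33, edgeR adjusted p = 0.0404), a call lost in 10 of 20 alternatives. With glucose present, 2 of the 12 were lower in depleted cells, against 1.45% of all tested genes in that direction. They were BTG2 (-0.66, SE 0.09, edgeR adjusted p = 0.00265) and ENSG00000289688, 35056 bases from TNFRSF19 (-2.10, SE 0.26, edgeR adjusted p = 0.0018). This gene, which has no other name in the table, averaged 1.20 ± 0.294 CPM in fed depleted and 5.16 ± 1.08 CPM in fed control cells. ETNK1 and BCAT1 beside SOX5, C11orf1 beside DIXDC1, MIPEP beside TNFRSF19, AGMO beside MEOX2, and AGAP13P and ANXA8 beside ZNF488 did not pass for starvation of control cells, at log2 fold changes of -0.64 (AGMO) to 0.54 (ENSG00000289688, which did not pass either).

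**Figure D4:**
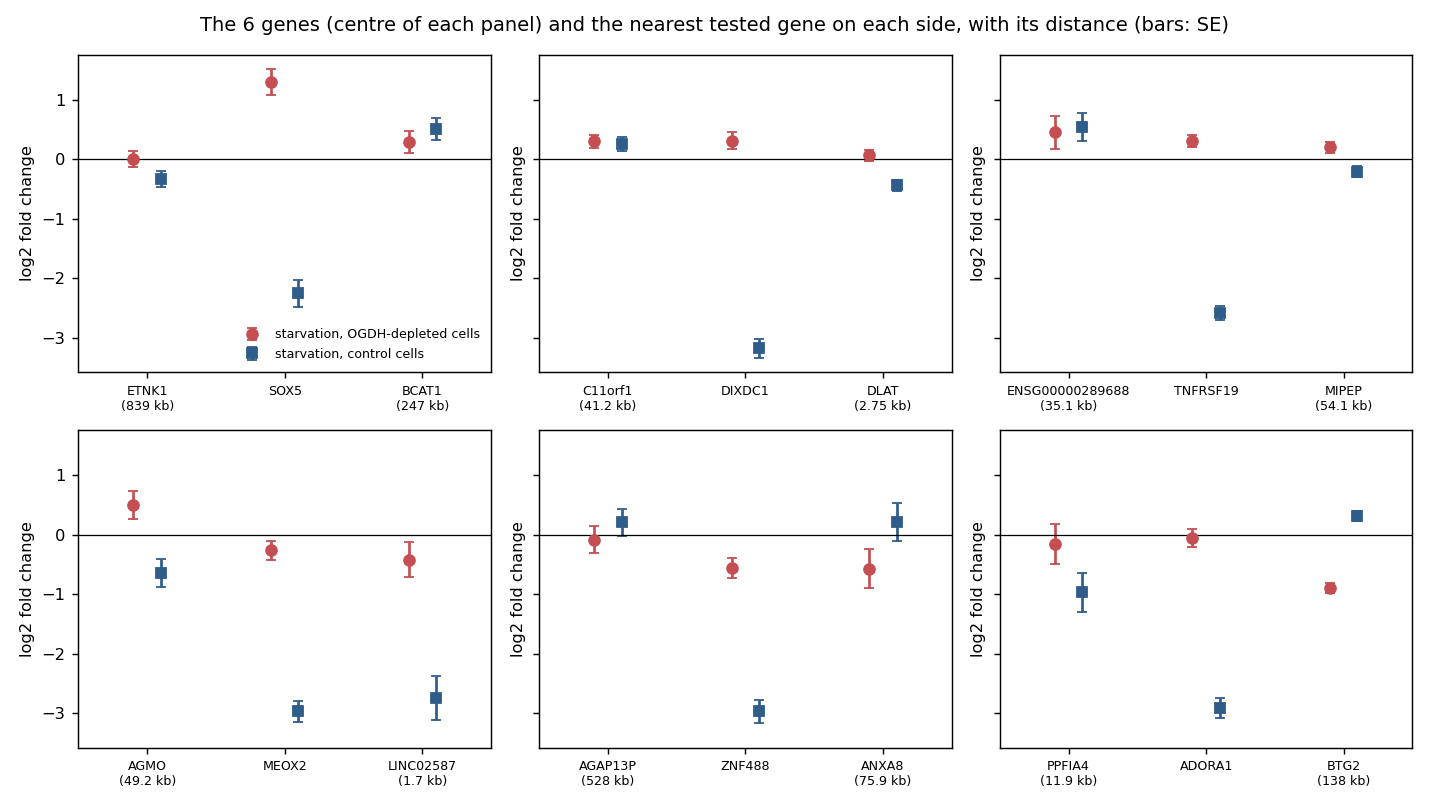
Log2 fold changes on starvation (points, SE as bars) of each of the 6 genes (middle of each panel) and its nearest tested neighbour on either side, with distances in kb (not to scale along the horizontal axis). Circles are OGDH-depleted and squares control cells. Beside MEOX2, LINC02587 lies at -2.74 in control cells, and no other neighbour is below -0.97 there.

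Genes related to the 6 by family or pathway were followed in 6 lists of 110 genes, of which 88 were tested. For starvation of control cells 18 of the 88 were higher (20.5%) and 21 lower (23.9%), near the 17% and 17.5% of all tested genes. Their median log2 fold change was -0.10, against -0.02 over all tested genes. For OGDH loss with glucose, 2 of the 88 were higher and 1 lower, against 1.59% and 1.45% of all tested genes. Before adjustment 20 of the 88 had an edgeR p under 0.05. That count was not set against all tested genes, so nothing is read from it.

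In the SOX family, 4 of 10 tested genes were higher and 4 lower in starved control cells. SOX9, a chondrocyte and neural crest factor that works with SOX5, averaged 85.5 ± 28.7 CPM in starved control and 13.5 ± 4.37 CPM in fed control cells (log2 fold change 2.66, SE 0.35, edgeR adjusted p = 0.000131). It was higher after starvation of depleted cells too (1.47, SE 0.33, edgeR adjusted p = 0.0228). The difference between its responses did not pass (-1.19, SE 0.46, edgeR adjusted p = 0.107). In starved control cells SOX11 also rose (1.12, SE 0.10, edgeR adjusted p = 1.03e-05) and SOX12 fell (-1.33, SE 0.10, edgeR adjusted p = 1.97e-06), both members of the SOXC group. SOX6, the SOXD gene that pairs with SOX5, was chosen after its values were seen. It averaged 6.49 ± 0.865, 6.83 ± 0.246, 2.76 ± 0.442 and 5.96 ± 1.29 CPM in starved depleted, fed depleted, starved control and fed control cells, and fell in starved control cells (-1.11, SE 0.18, edgeR adjusted p = 0.000715). With glucose, SOX13, the third SOXD gene, was lower in depleted cells (-0.47, SE 0.09, edgeR adjusted p = 0.0177). It averaged 18.8 ± 0.550 CPM in fed depleted and 25.9 ± 1.05 CPM in fed control cells. That call was lost in 7 alternatives.

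In the Wnt list around DIXDC1, 4 of 28 tested genes were higher and 5 lower in starved control cells. The ligand WNT5A averaged 20.03 ± 0.243 CPM in starved control and 62.9 ± 7.13 CPM in fed control cells (log2 fold change -1.65, SE 0.10, edgeR adjusted p = 2.98e-07). The secreted antagonist DKK1 rose (1.16, SE 0.09, edgeR adjusted p = 3.34e-06) and the receptor FZD2 fell with overlapping libraries (-1.01, SE 0.28, edgeR adjusted p = 0.015). Without starved control replicate 1 or 2, or fed control replicate 1 or 3, 3 to 5 genes of this list were called and FZD2 was not. DKK1 was also the gene of this list that was higher on OGDH loss with glucose, at 127 ± 8.84 CPM in fed depleted cells, against 81.5 ± 5.29 CPM in fed control cells (0.64, SE 0.09, edgeR adjusted p = 0.00437).

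In the list of TNF receptor superfamily members and TRAF adaptors, 4 of 22 tested genes were higher and 3 lower in starved control cells. TNFRSF11A, the receptor RANK, averaged 1.17 ± 0.300 CPM in starved control and 3.87 ± 0.241 CPM in fed control cells (log2 fold change -1.71, SE 0.21, edgeR adjusted p = 7.93e-05). TNFRSF21, a death receptor, fell (-1.10, SE 0.12, edgeR adjusted p = 2.98e-05), whereas NGFR, the low-affinity neurotrophin receptor, rose (1.17, SE 0.09, edgeR adjusted p = 3.05e-06). For OGDH loss with glucose, edgeR called 0 of the 22, against 3.04% of all tested genes in either direction. DESeq2 called 1 of the 22, against 1157 of the 18526 tested genes. With so few genes in the list, nothing is read from these counts. Before adjustment 3 of the 22 had an edgeR p under 0.05, a count not set against all tested genes.

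In the homeobox list, 4 of 14 tested genes were higher and 5 lower in starved control cells. MSX1 averaged 144 ± 11.9 CPM in starved control and 49.3 ± 2.65 CPM in fed control cells (log2 fold change 1.55, SE 0.09, edgeR adjusted p = 3.17e-07), and MSX2 rose too (1.22, SE 0.16, edgeR adjusted p = 0.000121). DLX1 fell (-1.33, SE 0.09, edgeR adjusted p = 8.93e-07). With glucose, HHEX was higher in depleted cells, at 50.5 ± 5.47 CPM in fed depleted cells, against 28.7 ± 3.33 CPM in fed control cells (0.81, SE 0.17, edgeR adjusted p = 0.0251), a call lost in 5 alternatives. MEOX1, the closest relative of MEOX2, had at most 1 count in a library and was not tested.

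Around ZNF488, 1 of 6 oligodendrocyte lineage genes was tested. This was MYRF, a transcription factor of myelination, which averaged 10.3 ± 1.39 CPM in starved control and 20.3 ± 2.72 CPM in fed control cells (log2 fold change -0.98, SE 0.15, edgeR adjusted p = 0.000456). OLIG2 had at most 3 counts in a library.

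In the adenosine list, 2 of 13 tested genes were higher and 3 lower in starved control cells, and 8 in all were called without fed control replicate 2. GNAO1, which encodes a Gi-family alpha subunit, averaged 3.67 ± 0.268 CPM in starved control and 7.29 ± 0.295 CPM in fed control cells (log2 fold change -0.99, SE 0.14, edgeR adjusted p = 0.000193). ENTPD1, the ectoenzyme CD39, fell (-0.85, SE 0.13, edgeR adjusted p = 0.000314), as did the nucleoside transporter SLC29A1 (-0.76, SE 0.10, edgeR adjusted p = 0.000127). Of the other adenosine receptors, ADORA2A and ADORA3 had at most 10 and 4 counts in a library and were not tested. ADORA2B, chosen after its values were seen, averaged 29.3 ± 2.41, 26.4 ± 0.910, 18.5 ± 1.74 and 23.1 ± 2.60 CPM in starved depleted, fed depleted, starved control and fed control cells and did not pass for starvation of control cells (-0.31, SE 0.12, edgeR adjusted p = 0.0572). For OGDH loss with glucose, edgeR called 0 of the 13, against 3.04% of all tested genes in either direction. DESeq2 called 1 of the 13, against 1157 of the 18526 tested genes. With so few genes in the list, nothing is read from these counts. Before adjustment 2 of the 13 had an edgeR p under 0.05, a count not set against all tested genes.

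Lineage markers did not all move with the 6 genes. The summed level of 8 melanocytic markers was 539 to 618 CPM in starved depleted, 583 to 705 CPM in fed depleted, 338 to 427 CPM in starved control and 611 to 715 CPM in fed control cells, most of it from SOX10. SOX10, the neural crest and melanocyte transcription factor, fell in starved control cells (log2 fold change -0.86, SE 0.12, edgeR adjusted p = 0.000209), as did S100B (-1.28, SE 0.24, edgeR adjusted p = 0.0015). Neither passed for starvation of depleted cells (-0.16, SE 0.12, and 0.24, SE 0.21). For both the difference between the responses passed (0.71, edgeR adjusted p = 0.0139, and 1.52, edgeR adjusted p = 0.00688), as for 17.3% of all tested genes. MITF passed neither for starvation of control cells (0.56, SE 0.21, edgeR adjusted p = 0.0638) nor for the difference (-0.09, SE 0.30, edgeR adjusted p = 0.892). Its mean was higher in starved than in fed control cells. DCT also had the higher mean in starved control cells (0.337 CPM, against 0.125 CPM in fed control cells). In the same order, MLANA (0.852 and 0.935 CPM), PMEL (0.983 and 1.13 CPM) and S100A1 (1.65 and 2.33 CPM) had lower means. The pigment cell genes TYR, DCT, MLANA and PMEL had at most 1, 15, 33 and 39 counts in a library, and S100A1 at most 75. The 10 markers of blood, endothelial, epithelial, stromal and liver cells summed to 1.62 to 2.64 CPM in a library, and 2 of them were tested. Whether the lower SOX10 and S100B have a part in the values of the 6 genes was not tested.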

How the data were processed

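Messenger levels were measured by RNA sequencing in 12 libraries, grouped by their titles. The authors deposited whole-number counts of fragments per gene name, made with featureCounts 2.0.1 per the file headers (pairs counted over exons, without strand, leaving out fragments that map or overlap more than once), and the summed exon length of each gene in bases, a deposited value of no standard unit. The submitters' processing notes name hg38 and Subread, and the aligner is not given in the sources used here. Without strand, fragments shared with an overlapping antisense gene cannot be told apart.

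From these counts, genes were kept by filterByExpr (minimum count 10, total 15, over the 4 groups), which left 18526 of 61209 gene names and 99.87% of counts. They were scaled by TMM factors and tested with edgeR 4.0.16 (R 4.3.3), quasi-likelihood test, 1 mean per group over all 12 libraries, Benjamini-Hochberg adjusted over all tested genes with a threshold of 0.05. CPM use the scaled totals, and RPKM divide by exon length. Log2 CPM for correlations used a prior count of 2. The test was run on simulated counts with 200 changed genes and independent libraries. That setting has fewer changed genes than these data and no outlying libraries, so it does not show how the test behaves here. Alternatives were RLE and upper-quartile scaling, no filter, a minimum count of 50, DESeq2 1.42.0, only the compared groups, a replicate block, each library left out, and, chosen after seeing the data, the 3 outlying libraries left out.

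The 6 genes, the related lists and the tests were chosen with earlier results of these data known. Named beside the 6 are the 10 genes of most similar profile, the nearest tested neighbours, and in each list up to 3 called genes with the largest change in starved control cells and on OGDH loss with glucose. Replicate pairs within groups differed by a chi-square per degree of freedom of 3.91 to 160.3, above sampling noise in each pair. No label states that replicates are separate cultures, and p-values then measure the spread of these libraries alone, which may be technical.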

Additional observations from a re-analysis of the deposited data

Results flagged for a closer look

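For the genes below the starvation response differed between depleted and control cells by the interaction term of the same edgeR fit (Benjamini-Hochberg adjusted p under 0.05, over all tested genes). The interaction is the log2 fold change in depleted cells minus that in control cells. The 6 genes themselves were left out, since they were chosen on this difference, and with 3 libraries in a group single libraries were not examined for gaps. All these contrasts rest on the same 12 libraries.

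Among neighbours, LINC02587 beside MEOX2 had an interaction of 2.32 (-0.42 in depleted and -2.74 in control cells, adjusted p = 0.00653) and AGMO, on the other side of MEOX2, 1.14 (0.50 and -0.64, adjusted p = 0.0347), a call lost in 8 of 19 alternatives. DLAT beside DIXDC1 had 0.51 (0.07 in depleted and -0.44 in control cells, adjusted p = 0.0211), a call lost in 4 of 19. BTG2 beside ADORA1 had -1.22 (-0.90 in depleted and 0.32 in control cells, adjusted p = 6.17e-05).

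Of the 88 related genes tested, 15 (17%) had a positive and 11 (12.5%) a negative interaction past the threshold. Over all tested genes the shares were 8.3% and 8.95%, and 17.3% in either direction. The lists were chosen with earlier results of these data known, so nothing is read from their larger shares. Given first are those among the genes picked by largest change in each list. The positive values were 2.04 for TNFRSF11A (0.34 in depleted and -1.71 in control cells, adjusted p = 0.000507), 1.78 for WNT5A (0.13 and -1.65, adjusted p = 8.98e-06) and 1.23 for GNAO1 (0.24 and -0.99, adjusted p = 0.0011). They were 0.99 for TNFRSF21 (-0.11 and -1.10, adjusted p = 0.00178), 0.72 for MYRF (-0.26 and -0.98, adjusted p = 0.0372), 0.71 for ENTPD1 (-0.15 and -0.85, adjusted p = 0.0165) and 0.70 for SOX12 (-0.63 and -1.33, adjusted p = 0.00511). They were 0.59 for SLC29A1 (-0.17 and -0.76, adjusted p = 0.0126) and 0.48 for DLX1 (-0.85 and -1.33, adjusted p = 0.0227). SOX6 and SOX10, named above outside that pick, also passed. Their values were 1.04 for SOX6 (-0.08 and -1.11, adjusted p = 0.0152) and 0.71 for SOX10 (-0.16 and -0.86, adjusted p = 0.0139). These calls were not followed through the alternatives.

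The negative values were -1.43 for SOX11 (-0.31 in depleted and 1.12 in control cells, adjusted p = 6.43e-05), -1.41 for MSX1 (0.13 and 1.55, adjusted p = 2.98e-05) and -1.40 for NGFR (-0.23 and 1.17, adjusted p = 3.65e-05). They were -0.84 for MSX2 (0.39 and 1.22, adjusted p = 0.0233), -0.64 for SOX13 (-0.06 and 0.59, adjusted p = 0.00455) and -0.54 for DKK1 (0.61 and 1.16, adjusted p = 0.0142).

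Of 19 alternatives, MYRF lost its call in 10, MSX2 in 7, DLX1 in 5, DKK1 in 2, and SOX13, ENTPD1 and SLC29A1 in 1. SOX11, SOX12, WNT5A, TNFRSF11A, NGFR, TNFRSF21, MSX1, GNAO1 and BTG2 kept theirs in all 19, and LINC02587 in the 18 that tested it.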

How the results depend on the processing

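The log2 fold changes of the 6 genes kept their direction under every alternative tried, and no value among those examined turned round. That of ADORA1 for starvation of depleted cells ran from -0.11 to a value that rounds to 0, so no direction is read from it. For starvation of control cells, 1 of the 6 moved by more than its replicate spread, TNFRSF19 to -2.64 with upper-quartile scaling. SOX5 had an interaction of 2.91 without the 3 outlying libraries, against 3.54 with them. The cause was not tested.

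For OGDH loss with glucose, TNFRSF19 missed the threshold without the filter on low counts (-0.50), with only the compared groups (-0.52) and with the replicate block (-0.52, adjusted p = 0.0551), and with single libraries left out it ran from -0.55 to -0.48. SOX5 ran from -1.42 to -1.02 with single libraries left out, and it missed the threshold at -1.30, -1.29 and -1.25 without fed depleted replicates 1, 2 and 3. The count of the 6 called lower was then 2 to 4.

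Counts of called genes were more fragile. Without the 3 outlying libraries they grew to 3313 of all tested genes for starvation of depleted cells, 11364 for starvation of control cells, 2021 and 9874 for OGDH loss with and without glucose, and 8077 for the interaction. Related genes then numbered 20, 60, 15 and 49 for starvation of depleted and control cells, OGDH loss with glucose and the interaction. Neighbours numbered 7 for starvation of control cells, 4 and 7 for OGDH loss with and without glucose and 7 for the interaction. DESeq2 called 2031 genes for starvation of depleted cells and 1157 for OGDH loss with glucose, with 14 and 9 related genes. Fitting only the compared groups gave 215 genes for OGDH loss with glucose and 2 neighbours for starvation of control cells, and upper-quartile scaling gave 7 neighbours there. A minimum count of 50 gave 5 related genes for OGDH loss with glucose. Leaving out single libraries gave 583 to 1959 genes for starvation of depleted cells and 172 to 632 for OGDH loss with glucose. Related genes then ran from 4 to 13, from 1 to 3 for OGDH loss with glucose and from 17 to 25 for the interaction, and neighbours from 2 to 4 for the interaction. The genes with a held fall, 138 in the main fit, were drawn anew when single libraries were left out and then numbered 141 to 197. Of these, 6 to 20 were lower on OGDH loss with glucose.

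Replicate numbers did not pair the libraries: 7 of 18 same-numbered pairs correlated above 0.1 (r -0.69 to 0.63), and 5 of 12 libraries correlated best with their own number. The replicate block left 342 genes for OGDH loss with glucose. Fitting only the compared groups gives no interaction. Depth limits the low values, such as the 15 to 26 counts of ZNF488 and the 3 to 6 of LINC02587 in starved control libraries.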
